A study of Rattus norvegicus with 13 samples.

Results

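Axon guidance ligands and receptors were described in RNA-Seq data of the ventricular zone (VZ), the germinal layer beside the ventricles of the developing brain. The rule for the members used gene names and a minimum level: the semaphorins of classes 3 to 7, plexins, neuropilins, Eph receptors, ephrins, Slits, Robos, netrins, the netrin receptors Dcc, Neo1 and Unc5, and the repulsive guidance molecules Rgma and Rgmb, each with a mean of at least 10 normalized counts over all pups. The rule gave 67 genes with 1 transcript row each among the 14606 rows that reached this mean, and no row with a matching name was below it. The members were 20 semaphorins (7 of class 3 and 13 of the other classes), 9 plexins, 2 neuropilins, 6 EphA and 5 EphB receptors, 5 ephrin-A and 3 ephrin-B ligands, 3 Slits, 2 Robos, 3 netrins, 6 netrin receptors, 2 Rgm ligands and Unc50. Unc50 matched the rule by the start of its name only and is not a guidance receptor, so it was counted among the 67 but placed in no family.

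The study asked how thyroid hormone acts on the VZ of newborn rats. Pregnant Long Evans rats received drinking water with propylthiouracil (PTU), which blocks thyroid hormone synthesis, at 3 ppm or at 0 ppm (control), through gestation and into lactation, and on postnatal day 2 the posterior VZ was cut out by laser capture microdissection from 1 male pup of each litter. The paper describes the 7 control pups as euthyroid and the 6 PTU exposed pups as hypothyroid. All 13 pups were of the same strain, sex and age, and those of exposed dams were exposed through the dam.

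Axon guidance cues are secreted or membrane-bound proteins that attract or repel growing axons and migrating cells. Class 3 semaphorins act through neuropilins and A-type plexins, class 4 semaphorins through B-type plexins, class 6 semaphorins bind A-type plexins directly, ephrins bind Eph receptors on neighboring cells, Slits bind Robos, netrins bind Dcc and Unc5 receptors, and Rgm proteins bind neogenin, the product of Neo1. In the germinal zones of the brain many of the same proteins are made by radial glia, the elongated progenitors of the VZ, and take part in cell adhesion, progenitor division and the migration of newborn neurons.

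No member had an adjusted p of at most 0.05 between PTU exposed and control pups (limma, Benjamini-Hochberg adjustment over all 14606 rows), and neither had any other row (0.0% of 14606), the smallest adjusted p of all rows being 0.0981. At an unadjusted p under 0.05, 14 of the 67 members (20.9%) differed, 8 with higher and 6 with lower values after PTU exposure, beside 16.3% of all rows (8.11% higher and 8.2% lower). With TMM factors (a trimmed mean scaling) or quantile normalization the split was again 8 higher and 6 lower, beside 16.2% and 16.7% of all rows. With an equal total for every pup, 13 members passed, 13 higher and 0 lower, beside 11.4% of all rows. That scaling moved the median log2 fold change of all rows to 0.20, so its split is not particular to the members. The control and PTU ranges overlapped for all 67 members, as they did for all but 0.596% of all rows. Over the members, the median log2 fold change (the difference in mean log2(normalized count + 1), PTU exposed minus control) was 0.10, with 39 above 0 and 28 below, beside a median of 0.0038 over all rows. With an equal total for every pup and the median of all rows taken off, 39 were again above 0 and 28 below. The members are therefore described by their values, and "higher" and "lower" stand for differences that passed the unadjusted threshold or for values given without a test.

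The 14 members with an unadjusted p under 0.05 were spread over both sides of the pathways. Among the 36 ligands, 5 were lower (Rgma, Sema4b, Sema5b, Sema6d and Efnb1) and 2 higher (Rgmb and Sema6b). Among the 30 receptors, 6 were higher (Epha6, Ephb2, Robo1, Robo2, Plxna2 and Plxna4) and 1 was lower (Plxnb1). By sign alone, 16 of the 36 ligands and 23 of the 30 receptors had a log2 fold change above 0, with medians of -0.030 and 0.15. With an equal total for every pup, where all rows shifted by 0.20, the counts were 27 of 36 and 28 of 30 (medians 0.17 and 0.35). With the median of all rows taken off under that scaling, they were again 16 of 36 and 23 of 30 (medians -0.035 and 0.15). Without PTU pup 1, which stood apart from the other pups, the counts above 0 were 18 of 36 ligands and 19 of 30 receptors (medians -0.032 and 0.064). With a neuron marker score in the model they were 9 of 36 and 15 of 30 (-0.11 and 0.0076), and with a radial glia marker score 9 of 36 and 12 of 30 (-0.18 and -0.078). The difference between ligands and receptors was not tested.

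**Figure D1:**
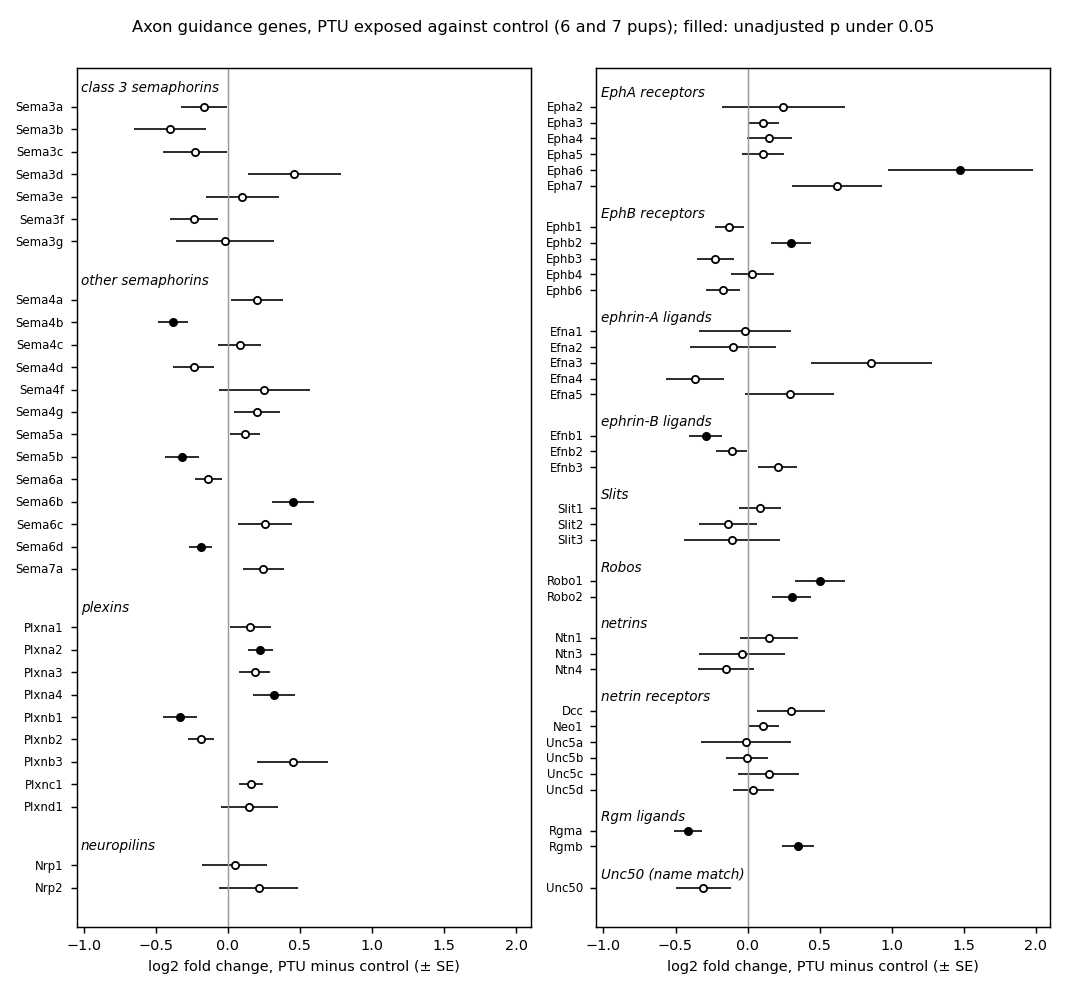
Log2 fold change of each of the 67 members, PTU exposed minus control, on the log2(normalized count + 1) scale, with bars of ± 1 SE from limma (n = 7 control and 6 PTU exposed pups), grouped by family; filled circles mark an unadjusted p under 0.05. The 14 filled circles lie on both sides of 0, from -0.41 for Rgma to 1.48 for Epha6, and the bar of Epha6 is the widest.

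The scale of the values and the makeup of the dissected tissue bear on every comparison. The reads behind the counts were estimated at 22295658 to 44388411 per pup (median 35213362). The 3 rows with the most counts, which have no gene name, took 23.9 to 60.1% of a pup's total. Giving every pup an equal total moved the median of all rows to 0.20. Markers of the VZ were present in every pup, and all 10 radial glia markers had a row. Their mean score was lower in PTU exposed pups by 0.32 log2 units (two-sided exact permutation test, p = 0.00175), with 5 of 10 markers lower (Pax6, Vim, Nes, Hes1 and Hes5) and summed levels of 84208 to 114060 normalized counts in control and 70153 to 91548 in PTU exposed pups. Of the 10 neuron markers, 5 were higher (Tubb3, Dcx, Stmn2, Snap25 and Gap43), with summed levels of 57025 to 83206 in control and 75138 to 124220 in PTU exposed pups; their score was higher by 0.57 (two-sided exact permutation p = 0.0589). Choroid plexus markers were also present, with 5 of 8 lower, a score lower by 0.71 (two-sided exact permutation p = 0.0600) and summed levels of 49075 to 138280 in control and 22949 to 98180 in PTU exposed pups. Of the endothelium markers, 6 of 8 genes had a row and none passed the threshold. Of the other lists, 1 of 3 intermediate progenitor, 1 of 3 pericyte and fibroblast, 1 of 6 microglia and 1 of 4 ependyma markers were lower, and 1 of 5 oligodendrocyte lineage markers was higher; the intermediate progenitor score was lower by 0.31 (two-sided exact permutation p = 0.0472). No marker row of any list was at 0. In bulk tissue, fewer cells of a type and less RNA per cell cannot be told apart.

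PTU pup 1 held the highest value of all 13 pups for 26 of the 67 members and the lowest for 8. Its root mean square distance from the mean of its group was 0.77 log2 units over the members, against 0.21 to 0.43 in the other 12 pups. This pup also had the highest neuron score (1.30, against -0.25 to 0.72 in the other PTU exposed pups and -0.98 to 0.14 in the controls) and the lowest radial glia score (-0.44). PTU pup 6 was next on both scores, with 0.72 and -0.42. The members high in PTU pup 1 included Nrp1, Nrp2, Epha4, Epha5, Epha6, Epha7, Dcc, Unc5a, Efna3, Sema3e and Sema4f, and those low in it included Efnb1, Sema5b, Plxnb1 and Ntn4. Without this pup 13 members had an unadjusted p under 0.05, beside 14.3% of all rows, and Efnb1, Ephb2, Plxna4 and Robo2 were no longer among them, while Sema3c, Sema4d and Plxnb3 were added.

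**Figure D2:**
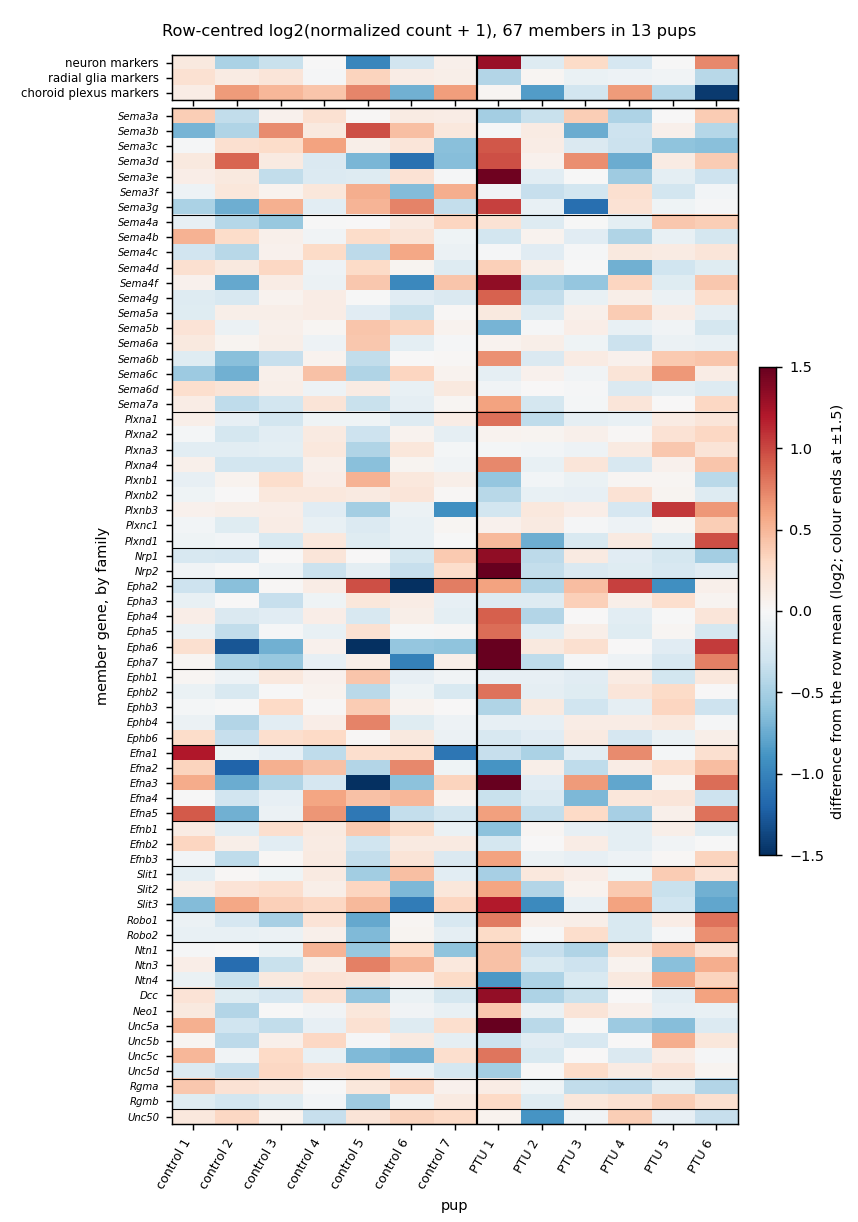
Row-centred log2(normalized count + 1) of the 67 members (rows, by family) in 7 control and 6 PTU exposed pups (columns), with the scores of 3 marker lists above; the color scale ends at ± 1.5. PTU pup 1 is the darkest column, with the highest value of 26 members, and it has the highest neuron score, at 1.30.

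The 2 repulsive guidance molecules lay on opposite sides of 0. Rgma, a membrane-anchored ligand of neogenin that also serves as a coreceptor for bone morphogenetic proteins (BMPs), ranged from 4556 to 6049 normalized counts over the control pups (median 5150), and the PTU exposed pups had 3379 to 4949 (median 3779). The ranges overlapped through PTU pup 1 only, and 5 of 6 PTU exposed pups lay below the lowest control. Its log2 fold change was -0.41 (SE 0.098, adjusted p = 0.122 in limma; two-sided exact permutation p = 0.00291). Of the 14 members, Rgma alone passed the unadjusted threshold in each of 3 models, with the neuron score (log2 fold change -0.46), with the radial glia score (-0.39) and without PTU pups 1 and 6 (-0.44), although with an equal total for every pup it did not (-0.21, where all rows shifted by 0.20). Without PTU pup 2 its adjusted p was 0.0453, the 1 case of an adjusted p of at most 0.05 for any member in any of the 29 alternatives.

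Rgmb, the related ligand and BMP coreceptor also called Dragon, ranged from 966 to 1538 normalized counts over the control pups (median 1232), and the PTU exposed pups had 1232 to 1808 (median 1642). Here 5 of 6 PTU exposed pups lay above the highest control and PTU pup 2 lay at the control median. Its log2 fold change was 0.35 (SE 0.11, adjusted p = 0.164 in limma; two-sided exact permutation p = 0.0105), and 0.12 with the radial glia score in the model. Within each pup, the log2 ratio of Rgmb to Rgma ranged from -2.41 to -1.63 over the control pups (median -2.10), and the PTU exposed pups had -1.83 to -1.03 (median -1.16); this pair was set side by side after the values had been seen, and no test was made of it. Their receptor Neo1 had a mean ± SD of 3432 ± 455 (n = 7) in control and 3703 ± 562 (n = 6) normalized counts after PTU exposure (log2 fold change 0.11, adjusted p = 0.638, limma). For Neo1, 3 of 6 PTU exposed pups lay on each side of the control mean.

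The promoter windows of the 2 Rgm genes are shown because both members of this family passed the unadjusted threshold, with opposite signs. Each runs from 250 bases before to 50 after the RefSeq start of the gene in the GRCr8 assembly, 5′ to 3′ on the strand of the gene. Rgma lies at chr1:136538532-136538831 on the plus strand and Rgmb at chr1:65465100-65465399 on the minus strand. The letters searched for were the half-site AGGTCA, which thyroid hormone receptors and several other nuclear receptors bind, on either strand; a match would be in capitals, and neither window holds one.
Rgma: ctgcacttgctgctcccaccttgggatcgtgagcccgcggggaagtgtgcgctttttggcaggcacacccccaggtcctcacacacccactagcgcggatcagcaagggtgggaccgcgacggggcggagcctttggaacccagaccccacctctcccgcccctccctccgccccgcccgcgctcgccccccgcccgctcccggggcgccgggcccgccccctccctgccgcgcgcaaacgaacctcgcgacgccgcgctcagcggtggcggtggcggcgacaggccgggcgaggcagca
Rgmb: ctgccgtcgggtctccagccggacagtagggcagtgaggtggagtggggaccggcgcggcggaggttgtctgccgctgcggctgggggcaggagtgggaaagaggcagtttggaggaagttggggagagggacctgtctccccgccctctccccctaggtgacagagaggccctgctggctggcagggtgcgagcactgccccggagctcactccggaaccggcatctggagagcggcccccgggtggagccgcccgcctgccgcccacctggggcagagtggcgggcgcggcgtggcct
Both windows are rich in G and C (75% and 72.3%) and in CpG (37 and 23). RefSeq windows were found for 52 of the 67 members, 53 windows in all since Robo1 has 2. The half-site stood in 2 of these 53 windows (3.77%), those of Epha6 and Sema3g, and in 16.2% of the 33469 windows of all genes. A direct repeat of the half-site spaced by 4 bases was in none of the member windows and in 2 of all windows. The median GC content was 64% in the member windows and 51.7% in all windows, and a window without these letters says nothing about binding elsewhere.

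Among the semaphorins, 4 of 20 had an unadjusted p under 0.05, all of them transmembrane proteins. Sema4b ranged from 1444 to 2160 normalized counts over the control pups (median 1724), and the PTU exposed pups had 1098 to 1559 (median 1297). Again 5 of 6 PTU exposed pups lay below the lowest control. This gave a log2 fold change of -0.38 (SE 0.11, adjusted p = 0.140 in limma; two-sided exact permutation p = 0.00524). The value was -0.34 with the neuron score and -0.35 without PTU pups 1 and 6, both past the unadjusted threshold. It was -0.19 with the radial glia score and -0.18 with an equal total for every pup, where all rows shifted by 0.20. Neither of these passed that threshold. Sema4b is shown because it passed the unadjusted threshold in the model with the neuron score, as Rgma did. Sema6d passed there too, and its window is not printed. The Sema4b window, chr1:143558547-143558846 on the plus strand of GRCr8, holds no half-site.
Sema4b: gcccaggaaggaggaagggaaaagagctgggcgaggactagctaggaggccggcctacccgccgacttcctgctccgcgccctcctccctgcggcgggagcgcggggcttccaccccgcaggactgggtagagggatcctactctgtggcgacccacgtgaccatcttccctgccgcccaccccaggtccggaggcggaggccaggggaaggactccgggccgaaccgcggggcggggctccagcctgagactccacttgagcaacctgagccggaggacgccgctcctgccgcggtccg
The remaining class 4 members had log2 fold changes on both sides of 0 (4 of 6 above 0 in the class), among them Sema4d, the best known ligand of Plxnb1, with 1028 ± 133 (n = 7) and 888 ± 219 (n = 6) normalized counts and a log2 fold change of -0.24 (adjusted p = 0.417, limma), or -0.34 without PTU pup 1.

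Sema5b, which inhibits axon growth, ranged from 1504 to 2130 normalized counts over the control pups (median 1678), and the PTU exposed pups had 985 to 1709 (median 1509). All 6 PTU exposed pups lay below the control mean and 3 below the lowest control, PTU pup 1 being the lowest. The log2 fold change of -0.32 (SE 0.12, adjusted p = 0.216) had an exact permutation p of 0.0192 and was -0.13 with the neuron score and 0.039 with the radial glia score in the model. Its relative Sema5a lay at 0.12 (adjusted p = 0.585).

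Of the class 6 semaphorins, which are membrane-bound ligands and can act as receptors too, 1 was higher and 1 lower. Sema6b ranged from 474 to 764 normalized counts over the control pups (median 645), and the PTU exposed pups had 631 to 1183 (median 881), with 5 of 6 PTU exposed pups above the highest control. The log2 fold change was 0.45 (SE 0.15, adjusted p = 0.174 in limma; two-sided exact permutation p = 0.0157), 0.21 with the neuron score and 0.045 with the radial glia score. Sema6d ranged from 2787 to 3603 over the control pups (median 3288), and the PTU exposed pups had 2590 to 3017 (median 2830), and all 6 PTU exposed pups were below the control mean while 3 of them stayed within the control range. Its log2 fold change of -0.19 (SE 0.078, adjusted p = 0.250; exact permutation p = 0.0181) was -0.20 with the neuron score, still past the unadjusted threshold, -0.11 with the radial glia score, which was not, and 0.012 with an equal total for every pup, where all rows shifted by 0.20. Sema6a, the membrane-bound semaphorin with the most counts (counts not corrected for transcript length, so that no order of levels between genes is read from them), had 4143 ± 543 (n = 7) and 3759 ± 371 (n = 6) normalized counts and a log2 fold change of -0.14 (adjusted p = 0.473), and Sema6c lay at 0.26 (adjusted p = 0.508).

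**Figure D3:**
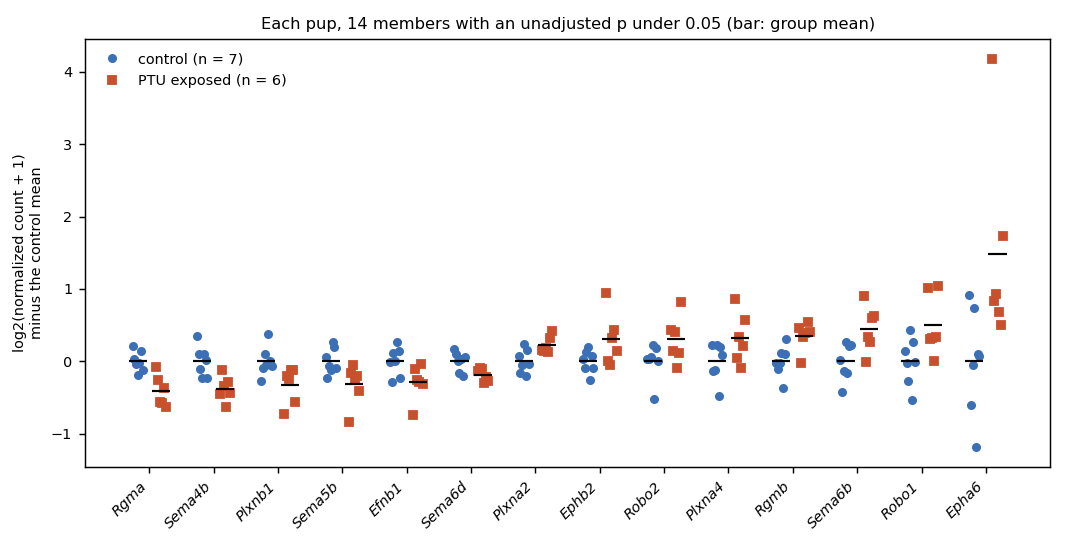
Log2(normalized count + 1) minus the control mean of each gene for the 14 members with an unadjusted p under 0.05, with 1 point per pup (7 control, circles; 6 PTU exposed, squares) and bars at the group means. The groups overlap for every gene, and in Epha6 the pup at the top is PTU pup 1, which had 1112 normalized counts.

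None of the 7 class 3 semaphorins, the secreted ligands of the neuropilin and plexin complexes, had an unadjusted p under 0.05 in the model without covariates or weights. Their log2 fold changes ran from -0.40 (Sema3b) to 0.46 (Sema3d), with 5 of 7 below 0. With an equal total for every pup 3 of 7 were below 0, and 5 of 7 once the median of all rows was taken off. Sema3c, the row of the class with the most counts, ranged from 2316 to 5446 normalized counts over the control pups (median 4059), and the PTU exposed pups had 2332 to 6830 (median 2970). PTU pup 1 held the top value, and the log2 fold change was -0.23 with it (adjusted p = 0.631) and -0.44 without it. That value passed the unadjusted threshold, as did Sema3c (-0.43) and Sema3b (-0.51) with the pups weighted by quality and Sema3a (-0.37) with the choroid plexus score in the model.

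Both neuropilins were highest in PTU pup 1. Nrp2, a coreceptor for class 3 semaphorins, had 4855 normalized counts in PTU pup 1, while the other 5 PTU exposed pups lay between 1054 and 1192, at or below most of the controls (1061 to 1615, median 1274). Its log2 fold change was 0.21 with all pups (adjusted p = 0.724) and -0.13 without PTU pup 1. For Nrp1 the group means ± SD were 1286 ± 233 (n = 7) and 1462 ± 886 (n = 6), and the log2 fold change changed from 0.047 to -0.21 when that pup was left out.

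Plexins, the signaling receptors of semaphorins, had 3 of 9 members with an unadjusted p under 0.05. Plxna2 ranged from 8546 to 11596 normalized counts over the control pups (median 9613), and the PTU exposed pups had 10716 to 13100 (median 11083). All 6 PTU exposed pups lay above the control mean and 2 above the highest control. The log2 fold change was 0.22 (SE 0.086, adjusted p = 0.225 in limma; two-sided exact permutation p = 0.0204), 0.24 without PTU pup 1, 0.15 with the neuron score, 0.12 with the choroid plexus score and 0.084 with the radial glia score. The last 3 were not past the unadjusted threshold. Plxna4 ranged from 2689 to 4387 over the control pups (median 3991), and the PTU exposed pups had 3510 to 6828 (median 4530), with 3 PTU exposed pups above every control and 3 within their range. The log2 fold change of 0.32 (SE 0.15, adjusted p = 0.294) did not pass the exact permutation test (p = 0.0915), and was 0.21 without PTU pup 1 and -0.017 with the neuron score.

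All 4 A-type plexins had a log2 fold change above 0 (0.16 to 0.32). Without PTU pup 1 Plxna1 lay near 0 (0.0077), and 2 of the 4 were above 0 with the neuron or the radial glia score in the model. Plxnb1, the receptor of Sema4d, was on the other side. It ranged from 5927 to 9253 normalized counts over the control pups (median 6874), and the PTU exposed pups had 4311 to 6566 (median 6119), and all 6 PTU exposed pups lay below the control mean, 2 of them below the lowest control. Those 2 were PTU pups 1 and 6. Its log2 fold change was -0.33 (SE 0.12, adjusted p = 0.182 in limma; two-sided exact permutation p = 0.0146), -0.093 with the neuron score and 0.022 with the radial glia score. The relatives Plxnb2 (10849 ± 710 and 9613 ± 1426 normalized counts, log2 fold change -0.19, adjusted p = 0.325) and Plxnb3 (105 ± 24.5 and 148 ± 58.4, 0.45, adjusted p = 0.372) did not pass the threshold. Plxnb2 had the smallest spread among the control pups of all members (SD of 0.096 on the log2 scale).

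Of the Eph receptors, the receptor tyrosine kinases that read out ephrins on adjacent cells, 2 of 11 had an unadjusted p under 0.05. Epha6 was the member with the largest log2 fold change, 1.48 (SE 0.50, adjusted p = 0.178 in limma; two-sided exact permutation p = 0.00991). It ranged from 25.99 to 115 normalized counts over the control pups (median 63.8), and the PTU exposed pups had 86.3 to 1112 (median 112). The highest value was again PTU pup 1, the next PTU pup 6 at 203, and the other 4 lay between 86.3 and 116, around the upper end of the control range. Without PTU pup 1 the log2 fold change was 0.94, with the neuron score 0.33 and with the radial glia score -0.16. Its window is shown because it is 1 of the 2 member windows with a half-site, which stands on the opposite strand (TGACCT as read on the strand of the gene) at 221 bases before the start, at chr11:53226534-53226833 on the plus strand of GRCr8, in capitals.
Epha6: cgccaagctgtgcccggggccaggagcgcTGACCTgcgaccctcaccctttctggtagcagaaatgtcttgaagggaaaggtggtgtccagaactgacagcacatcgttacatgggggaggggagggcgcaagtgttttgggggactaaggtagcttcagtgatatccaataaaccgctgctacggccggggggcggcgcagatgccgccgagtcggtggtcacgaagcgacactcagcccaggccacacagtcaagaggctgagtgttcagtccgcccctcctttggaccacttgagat

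All 6 EphA receptors had a log2 fold change above 0 (median 0.20), and 4 of 6 did without PTU pup 1. Epha4, the row among them with the most counts and a receptor for both classes of ephrins, ranged from 3696 to 4702 normalized counts in control pups and from 3217 to 8141 in PTU exposed pups. The highest and the lowest of all pups were both PTU exposed, and the log2 fold change was 0.15 with all pups (adjusted p = 0.655) and -0.013 without PTU pup 1. Epha7 had the second largest value of the receptors, 0.62 (adjusted p = 0.328), with group means ± SD of 622 ± 166 (n = 7) and 1122 ± 900 (n = 6) normalized counts, and 0.29 without PTU pup 1.

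The EphB receptors, which bind ephrin-B ligands, lay on both sides of 0 (2 of 5 above, median -0.13). Ephb2 ranged from 710 to 974 normalized counts over the control pups (median 872), and the PTU exposed pups had 824 to 1644 (median 1002), with 3 PTU exposed pups above the highest control. Its log2 fold change of 0.30 (SE 0.14, adjusted p = 0.296 in limma) had an exact permutation p of 0.0548. It was 0.17 without PTU pup 1, 0.11 with the neuron score and -0.014 with the radial glia score. Ephb1, the row of the group with the most counts, had 2443 ± 334 (n = 7) and 2236 ± 272 (n = 6) normalized counts and a log2 fold change of -0.13 (adjusted p = 0.540).

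Among the 8 ephrins 1 had an unadjusted p under 0.05. Efnb1, a transmembrane ligand of EphB receptors that neural progenitors express, ranged from 2240 to 3287 normalized counts over the control pups (median 2746), and the PTU exposed pups had 1634 to 2656 (median 2273). All 6 PTU exposed pups were below the control mean and 2 were below the lowest control. The log2 fold change was -0.29 (SE 0.11, adjusted p = 0.233 in limma; two-sided exact permutation p = 0.0315), -0.20 without PTU pup 1 and 0.014 with the radial glia score in the model. Efnb2 and Efnb3, the other two B-type ligands, lay at -0.11 and 0.21 (adjusted p = 0.629 and 0.442). The A-type ephrins, which are anchored to the membrane by a lipid, varied more between pups. Efna5 ranged from 76.1 to 306 normalized counts in control pups alone and from 114 to 285 in PTU exposed pups (log2 fold change 0.29, adjusted p = 0.662). Efna3 had 80.1 ± 38.3 (n = 7) and 167 ± 142 (n = 6) normalized counts, with 443 in PTU pup 1, and a log2 fold change of 0.86 (adjusted p = 0.319) that was 0.51 without that pup.

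Both Robos, the receptors of Slit proteins, had an unadjusted p under 0.05, and none of the 3 Slits did. Robo1 ranged from 2058 to 4027 normalized counts over the control pups (median 2953), and the PTU exposed pups had 2983 to 6143 (median 3738). PTU pups 1 and 6, at 6002 and 6143, were the 2 pups above the highest control, and the other 4 lay within the control range. This gave a log2 fold change of 0.50 (SE 0.18, adjusted p = 0.186 in limma; two-sided exact permutation p = 0.0361), 0.14 with the neuron score and -0.16 with the radial glia score. Robo2 ranged from 2620 to 4373 over the control pups (median 3831), and the PTU exposed pups had 3535 to 6652 (median 4549). Here control pup 5 stood below the other 6 controls, which began at 3773. The log2 fold change of 0.30 (SE 0.14, adjusted p = 0.287) did not pass the exact permutation test (p = 0.0728). It was 0.28 without PTU pup 1, 0.068 with the neuron score and -0.14 with the radial glia score. Slit1 had 1723 ± 365 (n = 7) and 1828 ± 351 (n = 6) normalized counts and a log2 fold change of 0.087 (adjusted p = 0.803), while Slit2 and Slit3 lay at -0.14 and -0.11 (adjusted p = 0.762 and 0.902). With the choroid plexus score in the model Slit2 and Slit3 were 0.32 and 0.62, and both passed the unadjusted threshold.

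No netrin and no netrin receptor had an unadjusted p under 0.05. Ntn4, a netrin that binds laminin and the row with the most counts of the 3, ranged from 412 to 637 normalized counts in control pups and from 287 to 780 in PTU exposed pups, so that the lowest and the highest pup were both PTU exposed (log2 fold change -0.15, adjusted p = 0.731, and 0.0064 without PTU pup 1). Ntn1, the attractant made by midline cells, and Ntn3 lay at 0.15 and -0.040. Dcc, the receptor through which netrin attracts axons, had 604 ± 116 (n = 7) and 809 ± 441 (n = 6) normalized counts, with 1627 in PTU pup 1, and a log2 fold change of 0.30 (adjusted p = 0.538) that was 0.070 without that pup. The 4 Unc5 receptors, which mediate repulsion by netrin, ran from -0.0099 to 0.15, the lowest being Unc5a, which lay at -0.37 without PTU pup 1, and Unc50 lay at -0.31 (adjusted p = 0.423).

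Marker scores were also used as covariates, 1 at a time. With the neuron score as a covariate 3 of the 67 members had an unadjusted p under 0.05 (Rgma, Sema4b and Sema6d, all lower), beside 8.33% of all rows, and the median over the members was -0.074. With the radial glia score, an alternative added after the data were seen, 4 members did (Rgma, Epha4, Dcc and Plxnd1, all lower), beside 4.64% of all rows, and the median was -0.14. Rgma was the 1 member common to both and to the 14. Without PTU pups 1 and 6, chosen for their scores, 4 members passed (Rgma, Rgmb, Sema4b and Sema4d), beside 10.1% of all rows. With the choroid plexus score 14 members passed, 8 of them among the first 14, beside 14.1% of all rows; the other 6 were Epha2, Epha7, Slit2, Slit3, Sema3a and Sema5a. With the endothelium score 12 passed, 11 of them among the first 14, beside 14.3% of all rows. The radial glia score differed between the groups, so the model with it cannot tell the exposure and that score apart. The neuron and choroid plexus scores also leaned with the group (0.57 higher and 0.71 lower, two-sided exact permutation p = 0.0589 and 0.0600). The models with them share this limit.

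**Figure D4:**
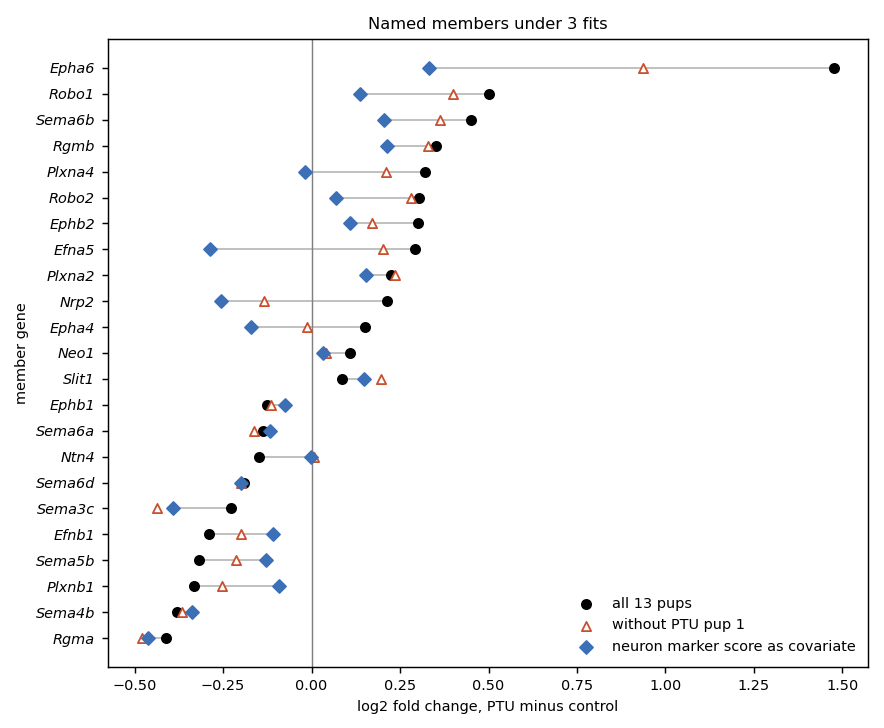
Log2 fold change, PTU exposed minus control, of the 23 members described one by one, from all 13 pups (filled circles), without PTU pup 1 (open triangles) and with the neuron marker score as a covariate (diamonds). Rgma, Sema4b and Sema6d kept nearly the same value in all 3 fits (Rgma -0.41, -0.48 and -0.46), whereas Epha6 went from 1.48 to 0.94 and 0.33.

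Beyond the ligands and receptors, 58 of 61 listed genes of the guidance machinery had a row, and 18 of them (31.0%) had an unadjusted p under 0.05, 17 higher and 1 lower in PTU exposed pups, beside 8.11% and 8.2% of all rows. None had an adjusted p of at most 0.05. Among adhesion molecules and coreceptors, 5 of 12 passed: L1cam, Dscam, Flrt1 and Flrt3 were higher, and Draxin, a secreted repellent that binds Dcc, was lower (log2 fold change -0.20, adjusted p = 0.297). Of the collapsin response mediators and Micals, which relay semaphorin signals to the cytoskeleton, 4 of 8 were higher (Crmp1, Dpysl2, Dpysl3 and Dpysl4), with the largest value for Dpysl4 at 663 ± 75.0 (n = 7) and 937 ± 188 (n = 6) normalized counts (0.48, SE 0.13, adjusted p = 0.133). Of the kinases and adaptors 3 of 13 were higher (Fyn, Pak1 and Nck2), and of the actin regulators 3 of 5 (Cfl1, Evl and Ablim3). Several of these genes, such as L1cam, Crmp1 and Dpysl3, are known to be strongly expressed in young neurons. The part of neuron content in their values was not tested. Over the same 58 genes, the count that passed was 4 with the neuron score in the model (beside 8.33% of all rows). Of these, Dpysl4 (0.36) and a gene not named here were higher and among the 18. Chl1 (-0.34) and Gsk3b (-0.19) were lower and not among the 18. The count was 1 with the radial glia score (4.64%) and 9 with the choroid plexus score (14.1%). It was 11 without PTU pup 1 (14.3%), 11 without PTU pup 6 (12.3%), 11 without control pup 5 (13.5%) and 5 without PTU pups 1 and 6 (10.1%).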

How the data were processed

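Total RNA-Seq libraries were prepared from the microdissected posterior VZ of 7 control and 6 PTU exposed pups. The paper reports that the RNA from this tissue was partly degraded. Per the labels and the methods, the authors trimmed reads with Trimmomatic, aligned them with STAR 2.7.8a to mRatBN7.2 (rn7), obtained transcript counts from the Partek E/M algorithm and scaled each library by its median ratio size factor, so the deposited values are a signal called normalized counts. The rows carry Ensembl identifiers (the methods mention RefSeq), and 1488 rows have no gene name. The deposited columns of the authors' DESeq2 comparison (p-value, ratio, log2 ratio and signed fold change, a score) were not used.

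Normalized counts were transformed to log2(value + 1), which understates changes of low genes. Of 14716 rows, the 14606 whose mean reached 10 were compared with limma 3.58.1 in R 4.3.3 (empirical Bayes with a variance trend, all 13 pups, no covariate, Benjamini-Hochberg adjustment, threshold 0.05). Single genes were also compared by an exact permutation test over all 1716 regroupings into 7 and 6 (two-sided, smallest p 0.000583). Of the values from 20 to 150, 88.7 to 90.3% were whole multiples (tolerance 0.05) of 1 step per pup, under the 95% set for a count model. Marker scores are means of row-centred log2 values. The members and lists were chosen with earlier results of these data known. Named with values are members with an unadjusted p under 0.05, members without overlap (0) and the row with the most counts of each family, 23 in all; other members and genes named in the text were chosen after their values were seen. The replicate numbers did not pair the pups. The fit was first tested on simulated data. Promoter windows are from RefSeq (GRCr8). Other steps ran in Python 3.11.15 with matplotlib 3.10.9, pandas 2.3.3, numpy 2.4.6 and scipy 1.17.1. The 27 alternatives comprised other pseudocounts (0.1 and 10), filters, scalings, pup weights, marker covariates, a replicate block and each pup left out, and 2 were added after seeing the data. A transcript length was not used here. The members of 1 list of other guidance genes are counted in the totals but not reported here.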

Additional observations from a re-analysis of the deposited data

Results flagged for a closer look

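Each of the 23 genes described one by one was examined in both groups for a pup far from the others. On the log2(normalized count + 1) scale, the gap to the nearest pup, over the range of the group, had to exceed Dixon's 95% limit. Of the 46 groups, 4 met this, and chance gives about 1 in 20. In 2 of the 4 the pup was PTU pup 1. Nrp2 had 4855 normalized counts in PTU pup 1, and the nearest other PTU exposed pup had 1192. Epha6 had 1112 in PTU pup 1, and the nearest had 203. Rgmb had 1232 in PTU pup 2, below the nearest at 1572. Robo2 had 2620 in control pup 5, below the nearest at 3773. PTU pup 1 had the highest neuron score and control pup 5 the lowest (1.30 and -0.98), and their part in these values was not tested.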

How the results depend on the processing

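The 23 genes described one by one were recomputed under 29 alternatives, and 641 of these 667 values kept the sign and the side of the adjusted threshold. The exceptions are 1 value past the threshold (Rgma without PTU pup 2) and 25 that changed sign. With an equal total for every pup, where all rows shifted by 0.20, these were Ephb1 (0.076), Ntn4 (0.052), Sema6a (0.065) and Sema6d (0.012), and the median over the members was 0.30. With the neuron score as a covariate they were Epha4 (-0.17), Efna5 (-0.29), Nrp2 (-0.26) and Plxna4 (-0.017), with 3 members at an unadjusted p under 0.05, a median of -0.074 and 4 of the other guidance genes. With the choroid plexus score it was Slit1 (-0.13), with 9 of the other guidance genes. Without PTU pup 1 they were Epha4, Ntn4 and Nrp2. Over each pup left out in turn Epha4 ran from -0.013 to 0.25, Ntn4 from -0.28 to 0.0064 and Nrp2 from -0.13 to 0.31. With the radial glia score, added after seeing the data, they were Epha4 (-0.35), Epha6 (-0.16), Ephb2 (-0.014), Robo1 (-0.16), Robo2 (-0.14), Efna5 (-0.45), Efnb1 (0.014), Nrp2 (-0.43), Plxna4 (-0.19), Plxnb1 (0.022) and Sema5b (0.039), with 4 members at an unadjusted p under 0.05, a median of -0.14 and 1 of the other guidance genes. Without PTU pups 1 and 6 they were Epha4 (-0.080) and Nrp2 (-0.15), with 4 members and 5 of the other guidance genes. The cause of these shifts was not tested.

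With each pup left out in turn, 0 to 1 members had an adjusted p of at most 0.05, 10 to 18 an unadjusted p under 0.05 (beside 12.3 to 20.5% of all rows), and the median ran from 0.040 to 0.14; among the other guidance genes the count ran from 11 to 21. With the replicate block 18 members had an unadjusted p under 0.05, 13 of them among the 14, beside 20.2% of all rows. The correlations of same-numbered pups ran from -0.070 to 0.20, so the numbers were not taken as pairs. The 7 and 6 pups limit the precision, and no raw counts or transcript lengths were used here.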
